A study of Phaseolus vulgaris with 21 samples.

Results

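The ethylene response factors (ERFs) described here are 23 of the 6359 transcripts in a table of nectary and leaf RNA-seq from common bean, Phaseolus vulgaris. They were chosen by annotation alone: the description of their closest Arabidopsis match names an integrase-type DNA-binding protein, an ethylene-responsive factor or a DREB protein. All 23 had a mean of at least 1 and were tested. Bean reads were counted on soybean transcripts, so each name below is that of a soybean transcript, and values of near-identical copies may have been split between them. The annotation words also drew in 2 ubiquitin ligases, DRIP1 and DRIP2 matches, which act on a DREB protein and are not transcription factors, so 21 rows are ERF-type factors. A further 13 rows carry the family name in their soybean description and stand outside the 23. They have another Arabidopsis description or, for LOC100801129, LOC100783729 and LOC100802036, none.

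Plants of cultivar Blue Lake 274 grew at 23 °C in days of 16 h and nights of 8 h, and 7 tissues gave 3 libraries each, 21 in all. Floral nectaries (FN) were taken 24 h before anthesis (pre1), 12 h before anthesis (pre2), at full anthesis 3 h after dawn (secretory) and 12 h after that (post). The other tissues were extrafloral nectaries (EFN) on the stem at lateral leaves, EFN at the base of terminal leaves (leaf EFN), and leaf. No hour of sampling is given for leaf or EFN, no plants are named behind the libraries, and p-values measure the spread between libraries only. Values are the authors' normalized values, rounded to whole numbers and summing to 2616502 to 4270943 per library, and 1 read was estimated to be worth 0.794 to 1.322 of these units. Values of a few units therefore rest on a few reads. The table appears to hold only transcripts present in secretory library 1, so those absent from it are not seen. Transcript lengths were not used, so levels are compared between tissues and not between genes.

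ERF proteins share the AP2/ERF DNA-binding domain. Many of them are end points of the ethylene pathway, in which receptors and the kinase CTR1 hold back EIN2 and EIN3, and EIN3 then switches on ERF genes. The DREB branch binds dehydration-responsive elements and acts in drought and cold, while the ERF branch binds GCC boxes and acts in defence, wounding and low oxygen. Members of structural group IX are mostly activators, many of group VIII are repressors with an EAR motif, and group VII factors are degraded when oxygen is present. The groups used below were assigned from the Arabidopsis locus of each row's first match, not from bean or soybean sequence, and 6 of the 23 rows match several loci.

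Relative to leaf, 19 of the 23 members had higher transcripts in floral nectaries, where 48% of all rows did, and 8 in extrafloral nectaries, near the 28.9% of all rows. Of the 13 family rows outside the 23, 7 were higher and 6 lower in floral nectaries than in leaf. ERF110-type LOC100802242 and ERF062-like LOC100820013 were higher in every floral library than in any other library, while DREB6 (LOC100101914) was high at the later floral stages and at 0 to 3 units at pre1. Group IX ERF105 (LOC100795866) had the opposite pattern, high in EFN and leaf and low in young floral nectaries. During floral ageing, 10 of the 23 members had their highest mean at the post stage, where 18.18% of all rows had theirs.

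**Figure D1:**
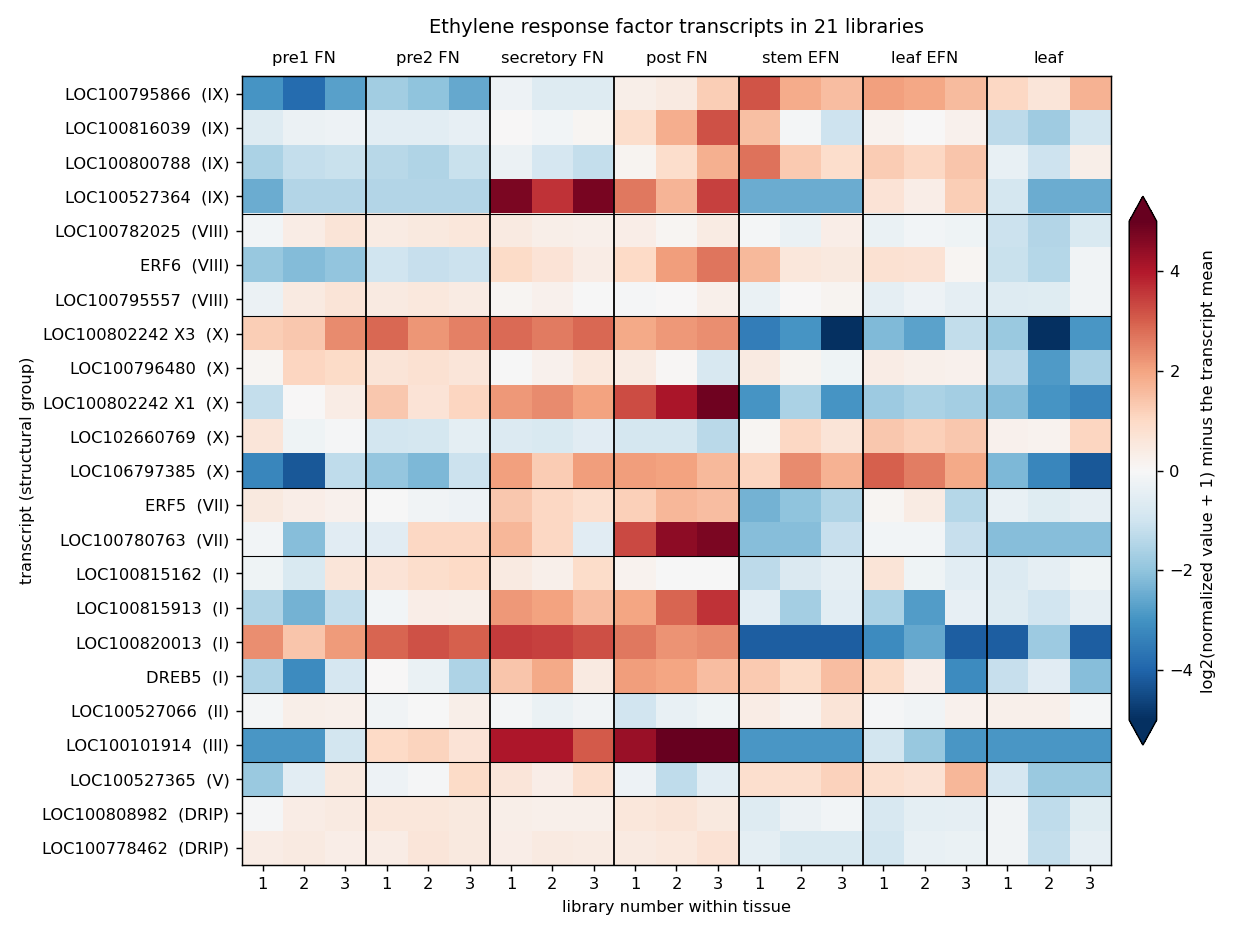
Rows are the 23 family transcripts with their structural group in brackets, columns are the 21 libraries in 7 tissues, and colour is log2(normalized value + 1) minus the transcript's mean over all libraries. LOC100820013 and LOC100802242 X3 are high in all 12 floral nectary libraries, and LOC100795866 is high in EFN and leaf.

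In floral nectaries against leaf, 19 of 23 members were called higher, where 48% of all rows tested were. By the same limma test 2 were called lower, against 27.8% of rows. Here and below, a call is an adjusted p under 0.05, a fold change is a difference on the log2(value + 1) scale, which understates changes of low transcripts, and p-values are adjusted over 6351 rows. The median log2 fold change was 1.45 over the members and 0.38 over all rows. Rescaling the libraries by median ratios moved the median over all rows to 0.105 and equal upper quartiles moved it to 0.035. Under either rescaling 16 members were higher and 3 lower, while the row calls changed from 3051 higher and 1763 lower to 2602 and 2232 with median ratios and to 2468 and 2359 with equal upper quartiles. In bulk tissue, fewer cells of a type and less RNA per cell cannot be told apart.

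Extrafloral nectaries differed from leaf in 8 members, all of them higher. Among all rows 28.9% were higher, so the count of higher members stood near the background. No member was lower, against 18.5% of rows. At an unadjusted p under 0.05, 10 members were higher and 1 lower, where 2100 of all rows were higher and 1343 lower. With median ratios or equal upper quartiles 7 members were higher and 1 lower, the lower one being soybean ERF5. The count of lower members was also 1 on leaving out library 1 or 2 of leaf EFN or library 3 of stem EFN. Over all rows, 1838 were higher and 1172 lower as deposited, against 1561 and 1509 with median ratios and 1689 and 1372 with equal upper quartiles. The 2 comparisons with leaf share the leaf libraries, so the difference between them was tested as floral against extrafloral nectaries. There 13 members were higher, near the 46.8% of all rows, and 7 lower, near the 32.4% of all rows. With equal upper quartiles 11 members were higher and 7 lower, and the row calls were 2442 higher and 2564 lower in place of 2973 and 2060.

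**Figure D2:**
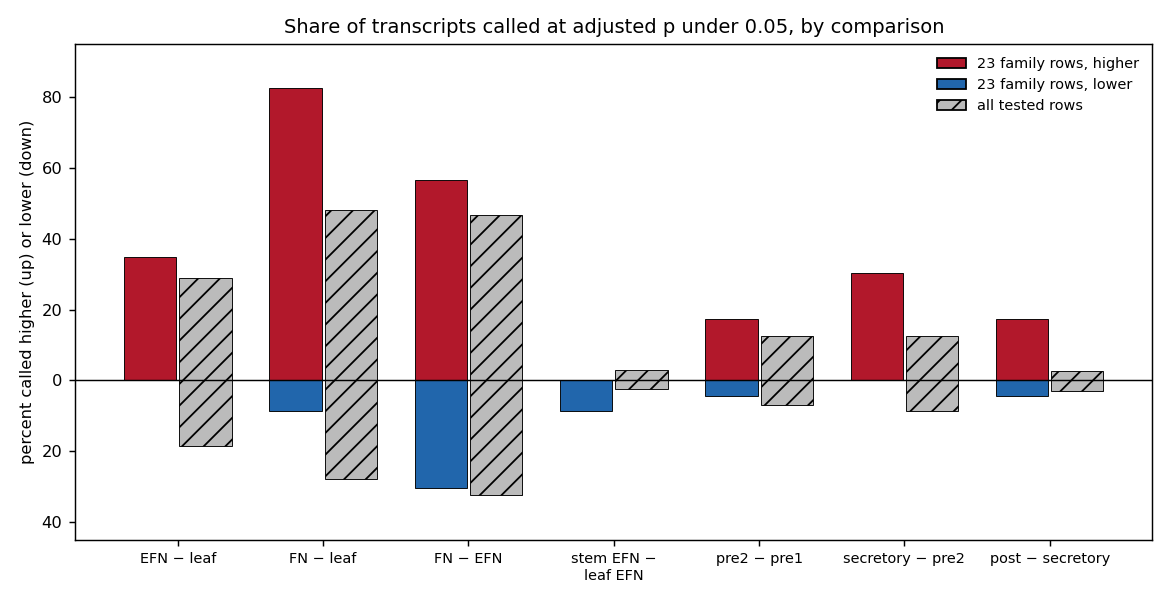
Bars give the percentage called higher (above 0) or lower (below 0) in each of 7 comparisons, with the 23 family rows in colour on the left and all 6351 tested rows hatched on the right. The family bar is far above the background in floral nectaries against leaf, with 19 of 23 members, and near it in EFN against leaf, with 8 of 23.

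Group IX holds 4 members. The 3 that match Arabidopsis ERF5, a rapidly induced activator of defence genes, are LOC100795866 (named ERF105 in soybean), LOC100816039 and LOC100800788, and reads of these relatives may be shared between them. LOC100527364 matches ERF15, an activator of abscisic acid and immune responses in Arabidopsis.

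LOC100795866 held 21, 11 and 25 units at pre1, 50, 41 and 28 at pre2, 142, 110 and 108 at the secretory stage and 207, 232 and 396 at post. Stem EFN held 1507, 625 and 493, leaf EFN 707, 652 and 508, and leaf 354, 258 and 578. All 12 floral libraries lay below all 6 EFN libraries, and 11 of them below all leaf libraries, with post library 3 inside the leaf range. The transcript fell by 2.42 in floral nectaries against leaf (SE 0.305, adjusted p = 6.09e-07), and by 3.3 against EFN (SE 0.236, adjusted p = 1.47e-10). Within the flower it was higher at the secretory stage than at pre2 (log2 fold change 1.6, SE 0.386, adjusted p = 0.00609), with no overlap between libraries. In EFN it was 0.88 higher than in leaf (SE 0.334, adjusted p = 0.037). That call was lost with median ratios (adjusted p = 0.0604), equal upper quartiles (0.0515), a fit to the compared libraries (0.0625), or without leaf EFN library 1 (0.0661), leaf EFN library 2 (0.0601), stem EFN library 1 (0.0781), leaf library 1 (0.103) or leaf library 2 (0.2).

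LOC100800788 held 22, 29 and 31 units at pre1, 25, 23 and 31 at pre2, 55, 37 and 29 at the secretory stage and 74, 127 and 237 at post. It held 452, 169 and 125 in stem EFN and 165, 141 and 177 in leaf EFN, against 52, 33 and 83 in leaf. All 6 EFN libraries lay above all 3 leaf libraries. It rose by 1.8 in EFN against leaf (SE 0.377, adjusted p = 0.000699) and fell by 2.05 in floral nectaries against EFN (SE 0.266, adjusted p = 7.96e-07). Floral nectaries and leaf differed by -0.25 (SE 0.344, adjusted p = 0.514). The third ERF5 match, LOC100816039, held 367, 700 and 1816 units at post, against 205, 180 and 216 at the secretory stage. At the earlier stages it held 127 to 167 at pre1 and 138 to 151 at pre2. Stem EFN spanned 96 to 571, leaf EFN 205 to 230 and leaf 58 to 105. It rose by 1.6 in floral nectaries (SE 0.388, adjusted p = 0.00104) and by 1.46 in EFN (SE 0.426, adjusted p = 0.00859) against leaf, the EFN call being lost without leaf library 2 (adjusted p = 0.0505).

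LOC100527364 was highest in floral nectaries of the secretory stage. It held 142, 66 and 147 units at the secretory stage, against 1, 1 and 1 at pre2, and 0, 1 and 1 at pre1. Post libraries held 33, 17 and 58. It rose by 5.81 at the secretory stage against pre2 (SE 0.509, adjusted p = 1.79e-07). Post libraries lay below all secretory ones, and the drop of 1.77 (SE 0.509, adjusted p = 0.0467) was at the edge of the threshold. That call was lost without any of 13 libraries, among them secretory library 1 (adjusted p = 0.172), secretory library 3 (0.201) and post library 2 (0.26). It was also lost with median ratios (0.059), equal upper quartiles (0.0525), a pseudocount of 0.5 (0.125) or a mean of at least 10 (0.0559). In stem EFN it was listed at 0 in all 3 libraries, against 8, 6 and 12 in leaf EFN (adjusted p = 0.00129). Fitting the compared libraries alone gave 0.0519, and a pseudocount of 10 gave 0.063.

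**Figure D3:**
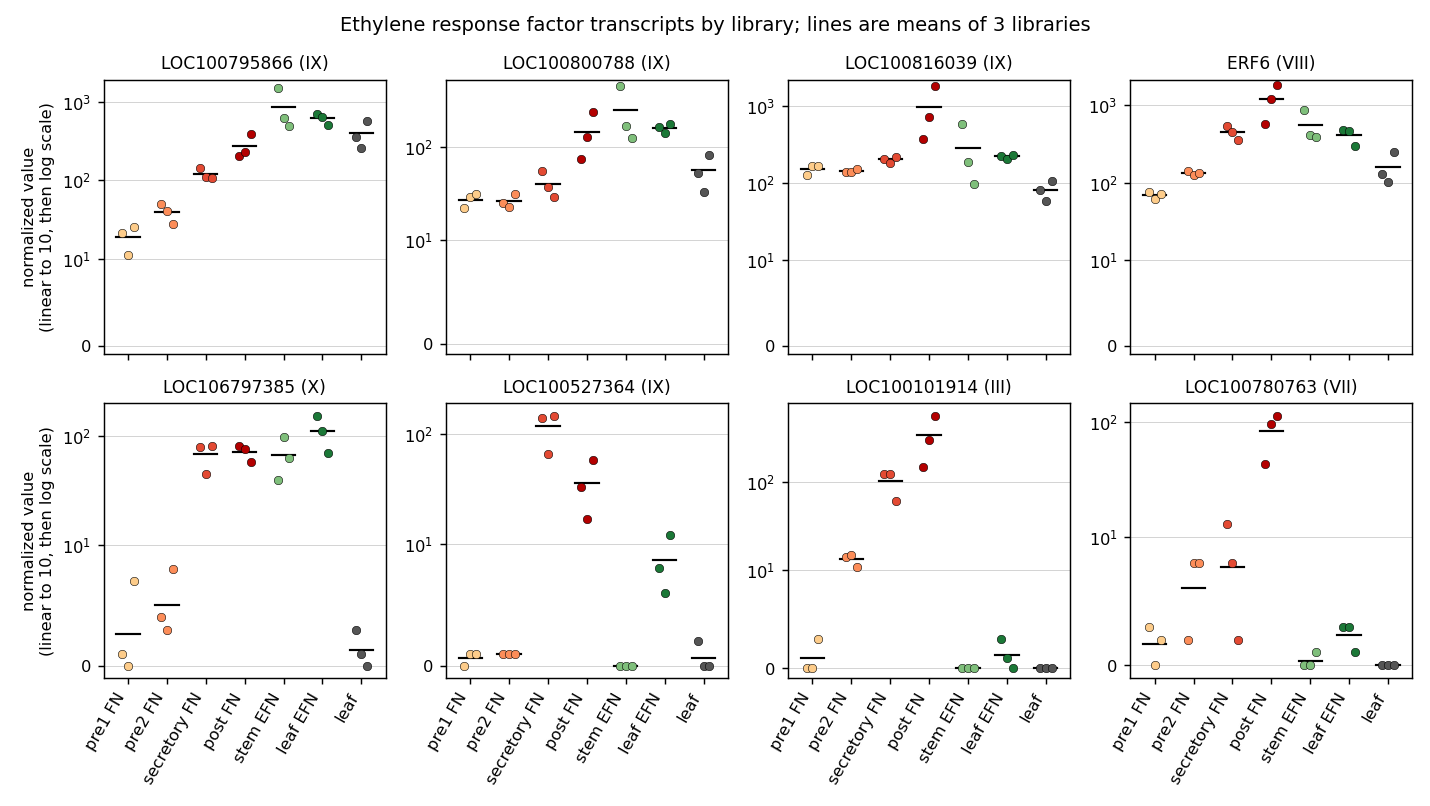
Each panel gives 1 transcript, each point 1 library on an axis that is linear to 10 and logarithmic above, and each line the mean of 3 libraries. LOC100795866 and LOC100800788 are high in EFN, LOC106797385 is high in EFN and in the flower from the secretory stage on, and LOC100527364, LOC100101914 and LOC100780763 stand at 0 to 3 units in leaf, stem EFN and pre1.

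The spread of the 3 ERF5 matches within stem EFN and post was wide, and followed a list of 7 rows known for rapid wound or handling responses, such as ZAT10 and WRKY40 matches. The group IX sum was 681, 1076 and 2507 units in post libraries 1 to 3, and the wound list summed to 1272, 2191 and 3329 in the same libraries. In stem EFN the group IX sum was 2530, 982 and 714, beside 2384, 1320 and 726 for the wound list. The libraries thus had the same order on both sums in each tissue. Over the other stages the wound list summed to 245 to 303 at pre1, 318 to 355 at pre2 and 715 to 849 at the secretory stage, and to 1013 to 1179 in leaf EFN and 575 to 1065 in leaf. In EFN against leaf, 6 of the 7 wound rows were higher and 0 lower, where 28.9% and 18.5% of all rows were. At the secretory stage against pre2, 5 were higher and 0 lower, where 12.6% and 8.77% of all rows were. Post library 3 was the highest of the post libraries for 14 of the 23 members, where 32.6% of all rows were highest in it. DREB6, LOC100815913, LOC100780763, both LOC100802242 variants, ERF6, LOC100795557, LOC100527066 and LOC100778462 also had the order of the wound list across the post libraries. Other sums ran in order there too. Nectary marker rows summed to 31405, 16176 and 8811, carpel and ovule rows to 3264, 2350 and 2019, and DREB and CBF target rows to 6370, 11025 and 15465. Nectaries were dissected by hand. The part of handling, or of other differences between these libraries, in the values of group IX and of these members was not tested.

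**Figure D4:**
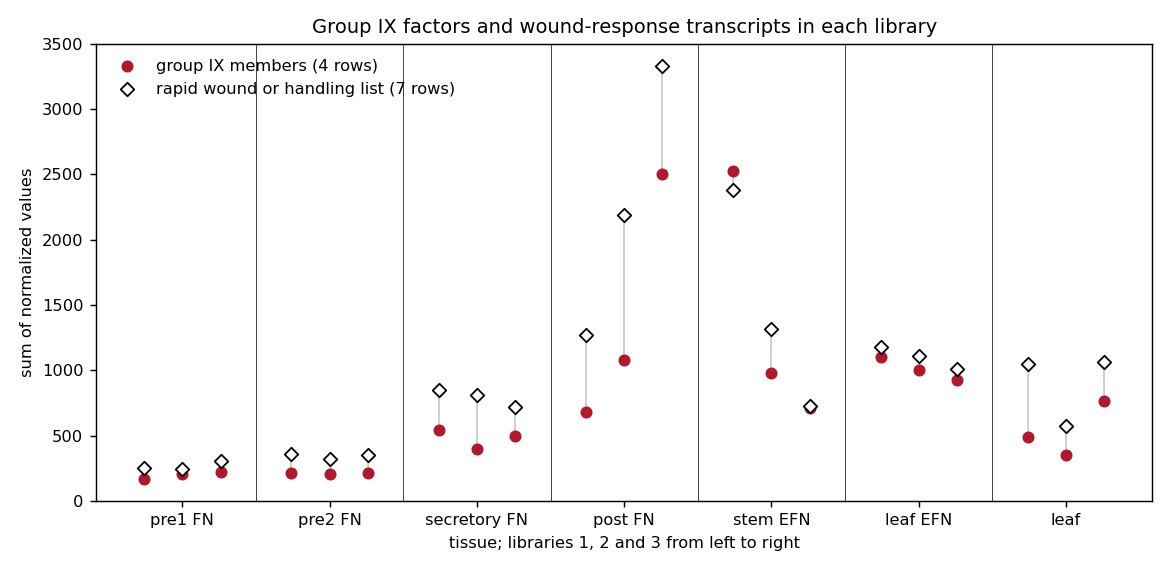
For each library the filled circle is the summed value of the 4 group IX members and the open diamond that of 7 rapid wound or handling rows, joined by a line, with libraries 1 to 3 from left to right in each tissue. Stem EFN library 1 and post library 3 are highest on both sums, at 2530 and 2384 and at 2507 and 3329 units.

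Group VIII holds 3 members that match the EAR repressors ERF4 and ERF7. Soybean ERF6, the ERF4 match, held 75, 62 and 72 units at pre1, 140, 125 and 133 at pre2, 543, 456 and 362 at the secretory stage and 569, 1196 and 1817 at post. Stem EFN held 878, 419 and 396, leaf EFN 476, 467 and 302, and leaf 129, 103 and 247. All 6 EFN libraries lay above leaf, and the pre1 libraries lay below every leaf library. ERF6 rose by 1.63 in EFN against leaf (SE 0.32, adjusted p = 0.000391). It rose by 1.75 at the secretory stage against pre2 (SE 0.37, adjusted p = 0.00228). The further difference of 1.26 at post against the secretory stage (SE 0.37, adjusted p = 0.0511) passed with median ratios (0.0372) or a pseudocount of 10 (0.0336). The floral mean stood 0.79 above leaf (SE 0.293, adjusted p = 0.0196), a call lost with median ratios (0.105), equal upper quartiles (0.166) and without leaf library 1 (0.0861) or 2 (0.164). Libraries of ERF6 had the same order as the wound list within post and within stem EFN, and the wound list had 6 of 7 rows higher in EFN against leaf and 5 of 7 at the secretory stage against pre2. The part of handling in the ERF6 values was not tested.

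Of the ERF7 matches, LOC100782025 held 674 to 1163 units across the 12 floral libraries, 592 to 947 in stem EFN, 598 to 682 in leaf EFN and 270 to 437 in leaf. Every nectary library lay above every leaf library. It rose by 1.46 in floral nectaries (SE 0.159, adjusted p = 8.65e-08) and by 0.98 in EFN (SE 0.174, adjusted p = 0.000148) against leaf. LOC100795557 held 194 to 372 units in floral nectaries, 186 to 264 in stem EFN, 174 to 200 in leaf EFN and 153 to 208 in leaf. It rose by 0.71 in floral nectaries against leaf (SE 0.162, adjusted p = 0.000603), with overlapping libraries, and differed by 0.26 in EFN (adjusted p = 0.233). Neither passed the F test among the 4 floral stages (adjusted p = 0.713 and 0.292).

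Group X holds 5 members, of which 2 are transcript variants of LOC100802242, the match of Arabidopsis ABR1, a repressor in abscisic acid responses. Reads from parts that both variants share cannot be told apart, and bean variants may differ from soybean ones. Variant X3 held 432, 478 and 960 units at pre1, 1381, 862 and 1076 at pre2, 1313, 1137 and 1356 at the secretory stage and 697, 843 and 935 at post. Stem EFN held 16, 23 and 5, leaf EFN 39, 28 and 79, and leaf 51, 5 and 24. All floral libraries lay above all others, and X3 rose by 5.51 against leaf (SE 0.463, adjusted p = 1.97e-09) and by 5.19 against EFN (SE 0.359, adjusted p = 9.17e-11). No step between adjacent floral stages was called with all libraries in the fit (adjusted p = 0.296, 0.829 and 0.644). In a fit to the compared libraries X3 was lower at post than at the secretory stage (log2 fold change -0.63, adjusted p = 0.0316), and it passed the F test among stages (0.00938). The authors' deposited table also carries a call for X3 between these stages.

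Variant X1 had higher values at each later stage, with 16, 38 and 49 units at pre1, 98, 61 and 80 at pre2, 176, 198 and 157 at the secretory stage and 368, 666 and 1128 at post. EFN libraries held 4 to 12 and leaf 3 to 8. X1 rose by 4.54 in floral nectaries against leaf (SE 0.356, adjusted p = 7.01e-10). Libraries of adjacent stages did not overlap at any step. It rose by 1.88 at post against the secretory stage (SE 0.45, adjusted p = 0.0163). That call was lost without secretory library 1 (adjusted p = 0.0553), secretory library 3 (0.0733), post library 2 (0.0657) or post library 3 (0.154). The call at pre2 against pre1 (log2 fold change 1.3, SE 0.45, adjusted p = 0.0485) was lost without any of 13 libraries (adjusted p of up to 0.268, without pre1 library 1). It was also lost with median ratios (0.0522), equal upper quartiles (0.057), a pseudocount of 0.5 (0.0561), no intensity trend (0.0525) and the replicate block (0.058). As a share of both variants, X1 made up 3.57%, 7.36% and 4.86% at pre1, 6.63%, 6.61% and 6.92% at pre2, 11.8%, 14.8% and 10.4% at the secretory stage and 34.6%, 44.1% and 54.7% at post. In EFN and leaf the variants were too low for the share to be read. Across the post libraries X1 had the order of the wound list, and the part of handling in its values and share was not tested.

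**Figure D5:**
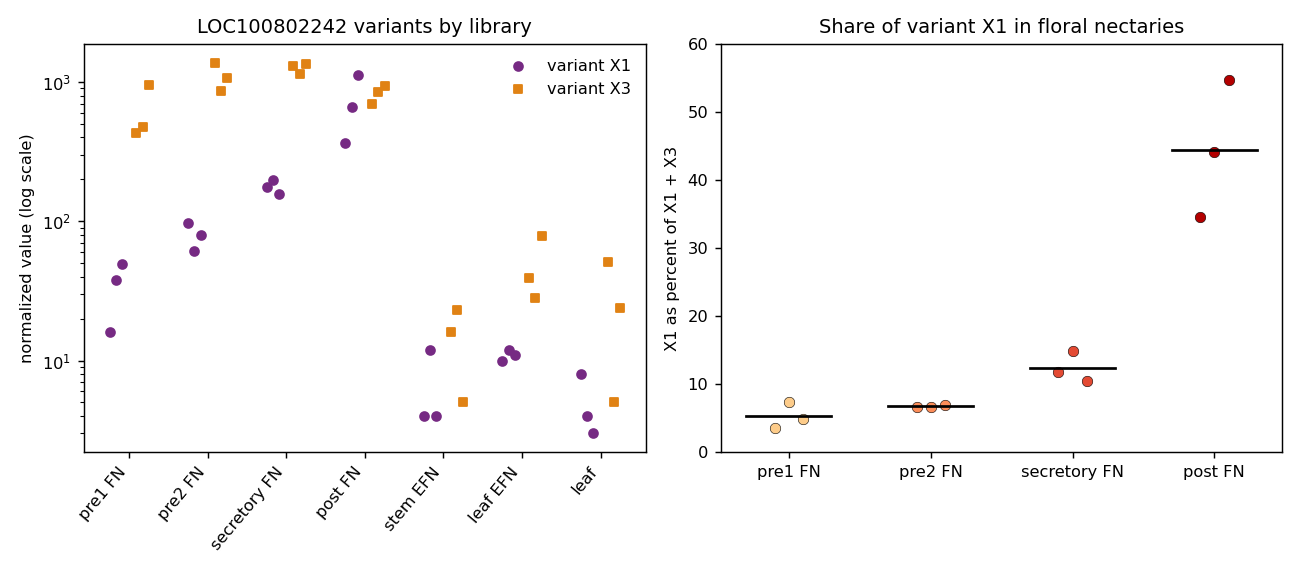
The left panel gives both LOC100802242 variants in each library on a log axis, and the right panel gives X1 as a percentage of X1 + X3 in the 12 floral libraries, with lines at the mean of 3. X3 stays at 432 to 1381 units through all floral stages while X1 reaches 368 to 1128 at post, and its share there is 34.6% to 54.7%.

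Both LOC106797385 and LOC100796480 match Arabidopsis ERF114, which acts in shoot branching, and the soybean description of LOC106797385 names the AP2-like factor BBM1. LOC106797385 held 1, 0 and 7 units at pre1, 4, 3 and 8 at pre2, 79, 45 and 81 at the secretory stage and 81, 75 and 57 at post. Stem EFN held 39, 98 and 62 and leaf EFN 152, 110 and 70, against 3, 1 and 0 in leaf. It was thus present in EFN and in open and aged floral nectaries, and at or under 8 units in younger floral nectaries and leaf. It rose by 5.36 in EFN against leaf (SE 0.53, adjusted p = 2.41e-07) and by 3.57 at the secretory stage against pre2 (SE 0.612, adjusted p = 0.000381). LOC100796480 held 138 to 510 units in floral nectaries, 213 to 330 in stem EFN and 281 to 317 in leaf EFN, against 99, 33 and 78 in leaf. All 18 nectary libraries lay above the leaf libraries. It rose by 2.31 in floral nectaries (SE 0.273, adjusted p = 2.6e-07) and by 2.13 in EFN (SE 0.299, adjusted p = 1.31e-05) against leaf, and floral and extrafloral nectaries differed by 0.18 (SE 0.211, adjusted p = 0.445).

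LOC102660769, named ERF118-like, was the other member called lower in floral nectaries. It held 114, 65 and 73 units at pre1, 39, 40 and 53 at pre2, 47, 44 and 50 at the secretory stage and 41, 40 and 29 at post. Stem EFN held 80, 155 and 117, leaf EFN 194, 174 and 192, and leaf 88, 84 and 158. It fell by 1.07 in floral nectaries against leaf (SE 0.219, adjusted p = 0.000203), with pre1 library 1 inside the leaf range. The drop of 0.89 at pre2 against pre1 (SE 0.277, adjusted p = 0.03) was lost without pre1 library 1 (0.175), pre2 library 1 (0.0924) or pre2 library 2 (0.106).

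Among the members, group VII is represented by soybean ERF5, described as RAP2-3-like, and LOC100780763, described as RAP2-2-like. Both match Arabidopsis HRE2, a hypoxia-induced factor. Outside the members, EREB and RAP2-2-like LOC100810376 match another Arabidopsis factor, described as related to AP2 2. EREB held 2239 to 4860 units in floral nectaries and 1659 to 2502 in leaf (log2 fold change 0.86, adjusted p = 7.05e-05). LOC100810376 held 299 to 426 and 179 to 257 (0.67, adjusted p = 0.000132). The structural group of these rows was not assigned. ERF5 held 209, 185 and 170 units at pre1, 144, 129 and 124 at pre2, 373, 305 and 260 at the secretory stage and 337, 460 and 429 at post. Stem EFN held 28, 36 and 51, leaf EFN 157, 196 and 54, and leaf 114, 97 and 106. Floral libraries all lay above leaf, and stem EFN libraries all lay below leaf EFN. ERF5 rose by 1.16 in floral nectaries against leaf (SE 0.258, adjusted p = 0.000486) and by 1.22 at the secretory stage against pre2 (SE 0.326, adjusted p = 0.0118), the last call being lost without secretory library 1 (0.0585). In stem EFN it fell by 1.65 against leaf EFN (SE 0.326, adjusted p = 0.00573), a call lost in a fit to the compared libraries (0.142) and without leaf EFN library 2 (0.0544).

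LOC100780763 was a late transcript. It held 43, 96 and 113 units at post, against 13, 8 and 2 at the secretory stage, and no other library exceeded 8. All 3 leaf libraries were listed at 0. It rose by 3.44 at post against the secretory stage (SE 0.637, adjusted p = 0.00326), and this call was kept without each of the 21 libraries in turn. Where 48% of all rows were higher in floral nectaries than in leaf, all 3 rows for hypoxia genes under group VII control in Arabidopsis were. Among them the LOB41-like LOC100807854 held 226 to 678 units in floral nectaries against 1 to 5 in leaf, and haemoglobin 1-like LOC100809295 held 36 to 150 against 0 to 4. At post against the secretory stage 0 of these 3 rows were called higher and 1 lower, where 2.63% and 3.1% of all rows were. The lower one was sucrose synthase SS (log2 fold change -1.32, adjusted p = 0.00623). Without a call, all post libraries of LOC100807854 lay above its secretory ones, at 505, 664 and 678 against 310, 286 and 265 (1.09, adjusted p = 0.0817). So did those of LOC100809295, at 103, 150 and 100 against 74, 95 and 93 (0.41, adjusted p = 0.831).

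Group I, of the DREB branch, holds 4 members. ERF062-like LOC100820013 held 88, 45 and 75 units at pre1, 130, 158 and 139 at pre2, 200, 188 and 165 at the secretory stage and 107, 83 and 89 at post. It was listed at 0 in all stem EFN libraries, and held 1, 2 and 0 in leaf EFN and 0, 4 and 0 in leaf. Every floral library lay above every other library, and the transcript rose by 6.06 against leaf (SE 0.386, adjusted p = 3.34e-11) and by 6.4 against EFN (SE 0.299, adjusted p = 2.41e-13). ERF061-like LOC100815913 held 21, 11 and 26 units at pre1, 55, 78 and 75 at pre2, 281, 253 and 178 at the secretory stage and 241, 462 and 753 at post, against 39, 31 and 45 in leaf. Pre1 libraries lay below leaf and all later ones above it. It rose by 1.85 at pre2 against pre1 (SE 0.496, adjusted p = 0.0133; 0.0678 without pre1 library 2 and 0.0542 without pre2 library 2). It rose by 1.75 at the secretory stage against pre2 (SE 0.496, adjusted p = 0.0165), lost without pre2 library 1 (0.0649), secretory library 1 (0.0666) or secretory library 2 (0.0593).

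ERF060-like LOC100815162, a relative of the RAP2.4 factor of light and ethylene responses, held 145, 100 and 254 units at pre1 and 273, 310 and 338 at pre2. Leaf held 103, 123 and 146, and the other tissues 68 to 317. It rose by 0.98 at pre2 against pre1 (SE 0.313, adjusted p = 0.0342). That call was lost without pre1 library 1 (0.112), pre1 library 2 (0.171), pre2 library 1 (0.0541), pre2 library 2 (0.095) or pre2 library 3 (0.103). Its call of 0.78 against leaf (SE 0.248, adjusted p = 0.00814) was lost with median ratios (0.0621), equal upper quartiles (0.101) and without leaf library 1 (0.0551). DREB5, a match of the drought-related ERF053, held 37, 34 and 25 units at post and 21, 16 and 25 in stem EFN, against 3, 5 and 1 in leaf. It held 0 to 32 in the other tissues. The call of 1.45 in floral nectaries (SE 0.636, adjusted p = 0.046) rested on a narrow margin and was lost without any of 13 libraries (adjusted p of up to 0.23, without leaf library 3), with median ratios (0.0867), equal upper quartiles (0.105) or a pseudocount of 0.5 (0.0862).

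Groups III, II and V have 1 member each. DREB6 (LOC100101914), of group III, held 0, 0 and 3 units at pre1, 14, 15 and 11 at pre2, 124, 123 and 62 at the secretory stage and 149, 306 and 566 at post. Stem EFN and leaf were listed at 0 in all libraries, and leaf EFN held 3, 1 and 0. No 2 adjacent floral stages overlapped. It rose by 3.16 at pre2 against pre1 (SE 0.57, adjusted p = 0.000801) and by 2.8 at the secretory stage against pre2 (SE 0.57, adjusted p = 0.00164), both calls kept without each library in turn. Post differed from the secretory stage by 1.58 (SE 0.57, adjusted p = 0.121; 0.00404 with a pseudocount of 10).

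LOC100527066, of group II, matches DEAR2, a DREB protein with a repressor motif. It held 106 to 255 units in floral nectaries, 237 to 322 in stem EFN, 186 to 238 in leaf EFN and 192 to 250 in leaf. It differed from leaf by -0.27 in floral nectaries (SE 0.159, adjusted p = 0.136), and was called lower with median ratios (0.0109) or equal upper quartiles (0.00339). LOC100527365, of group V, the group of the SHINE cuticle factors, was low throughout. It held 12, 12 and 15 units in stem EFN and 12, 11 and 22 in leaf EFN, against 3, 1 and 1 in leaf, and 1 to 13 in floral nectaries. It rose by 2.53 in EFN against leaf (SE 0.445, adjusted p = 0.000134). Of 2 acyltransferase rows for cuticle genes under these factors, 1 was higher in EFN than in leaf, where 28.9% of all rows were.

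The 2 DRIP ligase rows, LOC100808982 and LOC100778462, act in Arabidopsis to degrade the drought factor DREB2A. They held 85 to 142 and 105 to 141 units in floral nectaries, against 36 to 79 and 36 to 74 in leaf. Each had all floral libraries above all leaf libraries, with log2 fold changes of 1.09 (SE 0.185, adjusted p = 2.63e-05) for LOC100808982 and 1.07 (SE 0.178, adjusted p = 2.15e-05) for LOC100778462. Neither was called in a step between floral stages. The DREB2A match AP2-7, outside the 23 rows, held 18 to 49 units at pre1, 154 to 276 at pre2, 740 to 917 at the secretory stage and 1071 to 1755 at post, against 23 to 48 in leaf. It rose by 2.63 at pre2 against pre1 (adjusted p = 0.000371) and by 1.92 at the secretory stage against pre2 (adjusted p = 0.00354).

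Across the floral stages, 15 members passed the F test, against 57% of rows. Each step between adjacent stages also changes the time of day, so no such step alone can tell stage from hour. If the hours before anthesis count back from the secretory stage, pre1 shares its hour, and pre2 shares that of post. Neither pair was tested. At pre2 against pre1, 4 were called higher (LOC100815162, LOC100815913, LOC100802242 X1 and DREB6), where 12.4% of rows were, and 1 lower, where 7.05% were. Without pre1 library 1, pre2 library 1 or pre2 library 3 the higher count was 2, and without pre1 library 2 or pre2 library 2 it was 1. The lower call was lost without pre1 library 1, pre2 library 1 or pre2 library 2. Row calls at this step were 789 higher and 448 lower, against 700 and 640 with equal upper quartiles. At the secretory stage against pre2, 7 members were higher, where 12.6% of rows were. They were LOC100527364, LOC106797385, DREB6, LOC100815913, ERF6, LOC100795866 and ERF5. No member was lower, where 8.77% of rows were. In that direction 0 members had an unadjusted p under 0.05, where 1006 of all rows had. In a fit to the compared libraries 2 were lower, LOC100795557 (log2 fold change -0.37, adjusted p = 0.0201) and LOC100796480 (-0.43, adjusted p = 0.0282), and the row calls were 1304 lower in place of 557. The authors' deposited table carries a call for LOC100796480 at this step.

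At post against the secretory stage, 4 members were called higher, where 2.63% of rows were, and 1 lower, where 3.1% were. The higher ones were LOC100780763, LOC100816039, LOC100802242 X1 and LOC100800788. LOC100816039 rose by 1.95 (SE 0.491, adjusted p = 0.0228) and LOC100800788 by 1.72 (SE 0.435, adjusted p = 0.0234). Without post library 3, where the wound list was highest, 1 member was higher, LOC100780763. The count was also 1 without post library 2 or secretory library 3, and 2 without secretory library 1 or 2. The LOC100816039 call was lost without secretory library 1 (0.0666), 2 (0.0877) or 3 (0.065) or post library 2 (0.0656) or 3 (0.193). The LOC100800788 call was lost without secretory library 2 (0.0852) or 3 (0.121) or post library 2 (0.0759) or 3 (0.193). With median ratios 5 members were higher and 0 lower. Here too, stage and time of day change together, so the 2 cannot be told apart from this step alone.

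Stem EFN against leaf EFN gave 0 members higher, where 2.8% of rows were, and 2 lower, ERF5 and LOC100527364, where 2.57% of rows were. The lower count was 1 without leaf EFN library 2 and 0 in a fit to the compared libraries. At an unadjusted p under 0.05, 1 member was higher and 5 lower, where 633 of all rows were higher and 599 lower. In the authors' deposited table, 0 members carry a call between leaf EFN and stem EFN, 4 between pre1 and pre2, 9 between pre2 and the secretory stage and 6 between the secretory and post stages. Of all rows in the authors' deposited table, 2.06%, 18.9%, 29.9% and 9.86% carry those calls, in the same order.

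The steps of the ethylene pathway before the ERFs were measured in further rows. Of 11 rows for perception and signal transduction, 8 were higher and 2 lower in floral nectaries than in leaf, and 2 were higher and 1 lower in EFN. Of all rows, 48% were higher and 27.8% lower in floral nectaries, and 28.9% and 18.5% in EFN. The CTR1-like kinase LOC100810555 held 1801 to 3024 units in floral nectaries against 442 to 540 in leaf (log2 fold change 2.35, adjusted p = 2.49e-13). The receptor row LOC100802569 X3, ethylene response sensor 1-like, held 990 to 1527 against 113 to 222 in leaf (2.93, adjusted p = 8.48e-13). GRR1, another row of this list, held 4677 to 13582 against 1821 to 2555 in leaf (2.11, adjusted p = 3.13e-09). Ethylene receptor 2-like LOC100787425 held 515 to 1311 against 163 to 293 in leaf (1.87, adjusted p = 1.72e-08). LOC100777079, for the master transcription factor EIN3 of the pathway, held 5953 to 19066 against 2515 to 4195 in leaf (1.97, adjusted p = 1.11e-07). At post against the secretory stage, 0 of the 11 were higher and 1 lower, where 2.63% and 3.1% of all rows were.

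Of 7 rows for ethylene synthesis, 2 were higher and 4 lower in floral nectaries than in leaf, and 3 were higher and 3 lower in EFN. The shares of all rows in these comparisons are those given for the perception rows. ACC oxidase-like LOC100815336, for the last step of synthesis, held 411 to 715 units at pre1, 3689 to 4571 at pre2, 5148 to 6248 at the secretory stage and 4780 to 5623 at post, against 0 to 3 in leaf. ACS1, counted among the 7 rows, is an ACC synthase by its soybean description, and its enzyme activity is not known from these data. ACS1 held 7 to 20, 15 to 25, 84 to 106 and 82 to 109 at these stages, against 1100 to 1532 in leaf (log2 fold change -5.12, adjusted p = 1.55e-11). The other ACC oxidase-like rows differed in direction in floral nectaries against leaf. LOC100790622 was higher (6.14, adjusted p = 1.77e-12) and LOC100807427 lower (-4.81, adjusted p = 5.82e-08), while LOC100819184 was not called (-0.28, adjusted p = 0.328). Both RAV factors, which carry an AP2 and a B3 domain, were lower in floral nectaries, and RAV-like LOC732601 held 1 to 44 units there against 447 to 639 in leaf (-5.3, adjusted p = 3.54e-09). At the secretory stage against pre2, 12.6% of all rows were higher and 8.77% lower. Of 5 rows for DREB and CBF targets, 4 were higher and 0 lower at that step. Among these, dehydrin LOC547842 held 26 to 35 units at the secretory stage and 0 to 5 at pre2 (3.45, adjusted p = 0.00127). Of the 13 family rows outside the 23, 7 were higher and 6 lower in floral nectaries than in leaf, and 4 were higher and 1 lower in EFN. The 13 are taken by name and include AP2-like AIL7 (LOC100795280), among the higher in floral nectaries. RAP2-7-like LOC100812898 and RAV2-like LOC100789009, which is also counted with the RAV factors, were among the lower. Of all rows, 48% were higher and 27.8% lower in floral nectaries, and 28.9% and 18.5% in EFN. The excess of higher rows in floral nectaries is thus given for the 23 rows alone.

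The tissue labels were checked on markers. The 5 nectary rows summed to 8811 to 69117 units in floral nectaries, against 73 to 283 in leaf EFN, 137 to 254 in stem EFN and 12 to 53 in leaf, and the CRABS CLAW match LOC100500026 was at 0 in every EFN and leaf library. Carpel and ovule rows, 3 in number, summed to 2019 to 5969 in floral nectaries, 4 to 24 in EFN and 2 to 10 in leaf, and all 3 were higher in floral nectaries than in leaf. The part of adjoining carpel tissue in the floral values was not tested. Lists for epidermis, phloem, xylem and pollen matched 0 rows. Of 5 morning clock rows, 0 were higher and 4 lower in EFN than in leaf, where 28.9% and 18.5% of all rows were. Of 3 evening clock rows, 0 were higher and 1 lower. In floral nectaries against leaf, 1 morning row was higher and 2 lower, and 1 evening row was higher and 1 lower. The part of the sampling hour in comparisons with leaf was not tested.

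Likeness between members was measured by Pearson's r of log2 values over the 21 libraries, which share tissue and depth, and is given as a description. DREB6 was most like LOC100802242 X1 (r = 0.943), and LOC100815913 most like DREB6 (0.901). LOC100820013 was most like LOC100802242 X3 (0.922). In group IX, LOC100795866 and LOC100800788 were most like each other (0.858), and so were the ERF7 matches of group VIII (0.844).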

How the data were processed

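Members, gene lists and comparisons were chosen with earlier results of these data known. RNA of 7 bean tissues was sequenced in 3 libraries each. Per the file headers, the authors counted reads on soybean transcripts and deposited a score, read counts scaled to the upper quartile, as whole numbers. The mapper is not given in the sources used here, and the submitters' processing notes name DESeq without a version. Because the score is not a raw count, no count model was used. Values were taken as log2(value + 1), and 6351 of 6359 rows, those with a mean of at least 1, entered limma 3.58.1 (R 4.3.3) with 7 group means, 14 residual degrees of freedom, an intensity trend, two-sided tests and Benjamini-Hochberg adjustment. The pipeline was tested on simulated data. Floral stages and the 2 extrafloral tissues were weighted equally. The lowest value in secretory library 1 is 1, so the table appears filtered on it, and rows outside it are not analysed here. Rows at 0 number 0, 5 and 6 in the secretory libraries and 212, 308 and 234 in leaf. If so filtered, a transcript absent from that secretory library is missing here, while one absent from leaf can be listed. Genes were named where they passed the test, did not overlap and averaged at least 20 units, and the remaining members follow by structural group. Libraries share a replicate number only, and the block was an alternative. No sequences are printed.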

Additional observations from a re-analysis of the deposited data

Results flagged for a closer look

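The ERF105 transcript LOC100795866 differed in direction between the nectaries when each was set against leaf. It was lower in floral nectaries (log2 fold change -2.42, adjusted p = 6.09e-07 by limma) and 0.88 higher in extrafloral nectaries (adjusted p = 0.037, a call lost under several alternatives). The difference between the effects, floral minus extrafloral nectaries, was -3.3 (SE 0.236, adjusted p = 1.47e-10), with all 12 floral libraries below all 6 extrafloral ones.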

How the results depend on the processing

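No member changed direction past the threshold under any alternative run. In a fit to the libraries compared, the secretory stage against pre2 had 1387 rows higher and 1304 lower, with 11 members higher and 2 lower. Post against the secretory stage had 347 rows higher and 332 lower, with 3 members lower. Pre2 against pre1 had 2 members lower, and stem against leaf EFN had 45 rows higher, 21 lower and 0 members lower. With a pseudocount of 10, that last count was 1. EFN against leaf had 1 member lower with median ratios or equal upper quartiles. Post against the secretory stage had 0 members lower with median ratios, equal upper quartiles, a pseudocount of 0.5 or a mean of at least 10, and 2 with a pseudocount of 10. The cause was not tested. Of 178 member values in the fit to the compared libraries, 14 gained and 3 lost a call. Among those gained, LOC100820013 was higher at pre2 (0.0169) and at the secretory stage (0.0475) and lower at post (0.008), each against the stage before it.

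Leaving out each library in turn gave these ranges. EFN against leaf had 1535 to 1972 rows higher, 886 to 1194 lower, and 6 to 9 members higher and 0 to 1 lower. Floral nectaries against leaf had 16 to 19 members higher and 2 to 2 lower, and against EFN 13 to 13 higher and 6 to 7 lower. Stem against leaf EFN had 53 to 338 rows higher and 47 to 209 lower, with 1 to 3 members lower. Pre2 against pre1 had 453 to 893 rows higher and 164 to 515 lower, with 1 to 6 members higher and 0 to 1 lower. The secretory stage against pre2 had 531 to 877 rows higher and 278 to 636 lower, with 5 to 8 members higher and 0 to 0 lower. Post against the secretory stage had 53 to 271 rows higher and 83 to 333 lower, with 1 to 6 members higher and 0 to 1 lower. Over 3864 such values of single members, 92 lost and 39 gained a call.

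With the replicate number as a block, 1 of 184 member values lost its call (LOC100802242 X1 at pre2 against pre1, adjusted p = 0.058) and 1 gained it (LOC100527364 in EFN against leaf, 0.0479), and floral nectaries against leaf kept a count of 19 members higher and 2 lower. Same-numbered libraries correlated between -0.2546 and 0.1889 in their deviations from group means, and 0 of 21 pairs of groups had a mean over 0.1, so the samples share only a number. The planned count model was not run, since the values are not raw counts.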
